A study of Rattus norvegicus with 8 samples.

Results

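The genes described here encode the proteases and other enzymes of the lysosome, the proteins of its membrane, its proton pump and Lrp2, a receptor that takes up thyroglobulin. The list of 37 gene symbols was drawn up with earlier results of these data known, out of 14217 genes with a named probe set on the array. Each gene was represented by its probe set with the highest mean signal over 8 arrays. The filter on dim probe sets left 35 of the 37 for testing, among 10047 genes tested. The exceptions were the cysteine protease Ctsk, the main cathepsin of bone-resorbing cells, with signals of 3.75 to 44.2, and the carboxypeptidase Ctsz, with 3.79 to 57.7. The roles were 13 proteases (11 tested), 10 other hydrolases and their activators, 9 membrane, transport and regulatory proteins, and 5 genes of the proton pump.

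Thyroid follicular cells store their hormone inside thyroglobulin, a large glycoprotein kept outside the cell in the follicle. To release it, the cell takes thyroglobulin back up and carries it to lysosomes, where cathepsins and exopeptidases cut it down and free the hormone. A proton pump keeps the lysosome acid, glycosidases strip the sugars, and the transcription factor Tfeb with its relatives switches on many lysosomal genes through a short motif in their promoters.

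The cells were FRTL-5, a rat thyroid follicular line, sub-clone SB5, and all of them carried a stably expressed human TSH receptor and grew with bovine TSH at 5 mU/ml. The 4 groups were L629F receptor cells given 1 mM sodium iodide, L629F cells given 1 mM sodium chloride, wild type receptor cells given 1 mM sodium iodide, and wild type cells given 1 mM sodium chloride. L629F is a receptor mutation that signals without hormone, and the study asked what iodide does to gene expression in such a model of thyroid autonomy. Each group had 2 arrays. There was 1 line per receptor, the labels give no treatment time, and they do not say whether the arrays came from separate cultures, so p-values measure the spread between these samples, which may be technical.

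Values are MAS5 signals on a linear scale. Changes are log2 differences on the log2(signal + 35.3) scale with their standard errors (SE), which understates the change of dim genes, and adjusted p-values come from limma with Benjamini-Hochberg adjustment over 10047 genes, at a threshold of 0.05. The 25th percentile of the signals was 40.8 to 43.1 on the L629F arrays and 29.3 to 31.6 on the wild type arrays. The 3′ over 5′ signal of GAPDH, a measure of RNA integrity, was 2.27 and 2.49 on the L629F iodide arrays and 1.54 and 2.17 on the L629F chloride arrays. The wild type values were 1.40 and 3.13 with iodide and 1.22 and 1.55 with chloride. All 8 thyroid markers on the array were above the filter (Tg, the thyroglobulin gene, at 10748 to 16582, Nkx2-1 at 7031 to 9722, Pax8 at 5506 to 8086). Of these 8, the iodide transporter gene Slc5a5 (-1.02 ± 0.21, adjusted p = 0.0268) fell and Hhex (0.38 ± 0.09, adjusted p = 0.0438) rose with iodide on average, and Duox2 (0.50 ± 0.11, adjusted p = 0.0257) was higher in L629F cells. Of all genes 1.6% passed for iodide and 3.17% for the receptor on average. The Slc5a5 arrays overlapped in L629F cells, with 1027 and 2149 with iodide and 1980 and 2761 with chloride. The summed signal of 10 leucocyte markers was 622 to 674 with iodide and 550 to 593 with chloride in L629F cells, and 516 to 645 with iodide and 487 to 504 with chloride in wild type cells. It was thus higher on the iodide arrays of each line without overlap, but in L629F cells this rested on Ptprc, which had 116 on iodide replicate 1 and 3.92 to 11.3 on all other arrays. Without Ptprc, a choice made after seeing the data, the sums were 505 and 663 with iodide and 546 and 586 with chloride in L629F cells, which overlapped. Without it they were 509 and 636 with iodide and 478 and 499.8 with chloride in wild type cells, which did not. None of its 4 tested genes passed in limma for iodide or for the receptor averaged over the other factor. In limma 0 and 1 of them had an unadjusted p under 0.05. These genes were Cd14 (signals of 98.1 to 186), Cd3e (73.9 to 144), Csf1r (16.8 to 151) and Lyz2 (16.3 to 133). Among the markers below the filter, Itgam, another defining marker, had 4.30 to 10.4 and Cd68 had 14.3 to 101. The part of these markers in the results below was not tested. The sums were 322 to 566 and 348 to 413 in L629F cells with iodide and chloride, and 351 to 437 and 312 to 330 in wild type cells, for 7 fibroblast markers. For 5 C cell markers they were 201 to 268 and 287 to 309 in L629F cells with iodide and chloride, and 217 to 219 and 208 to 224 in wild type cells. For 4 endothelial markers they were 149 to 189 and 271 to 353 in L629F cells with iodide and chloride, and 229 to 437 and 304 to 374 in wild type cells. The C cell and endothelial sums were thus lower with iodide without overlap in L629F cells, and overlapped in wild type cells. Their only tested genes did not pass in limma for iodide on average (Ret -0.61 ± 0.24, adjusted p = 0.232, and Vwf -0.40 ± 0.26, adjusted p = 0.505). The part of these sums in the results below was not tested.

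The promoter windows below show the members whose signal passed for iodide averaged over both lines and that had a window, which Cpq had not, with Lamp1 added afterwards as the member with the most E-boxes. They run from 250 bases before to 50 bases after the gene start, from RefSeq on GRCr8, and a window was found for 30 of the 37 members. Capitals mark the E-box CACGTG, the core of the motif read by Tfeb, or CATGTG on either strand (CACATG when read here), the form known for its relative Mitf.
Gpnmb (chr4:79340878-79341177, + strand): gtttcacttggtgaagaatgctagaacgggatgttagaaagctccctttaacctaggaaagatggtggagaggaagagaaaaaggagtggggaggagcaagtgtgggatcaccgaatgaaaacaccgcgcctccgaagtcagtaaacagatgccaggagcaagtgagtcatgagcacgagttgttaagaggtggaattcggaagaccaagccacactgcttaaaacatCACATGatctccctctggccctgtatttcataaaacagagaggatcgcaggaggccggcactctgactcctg
Ctsd (chr1:206968772-206969071, - strand): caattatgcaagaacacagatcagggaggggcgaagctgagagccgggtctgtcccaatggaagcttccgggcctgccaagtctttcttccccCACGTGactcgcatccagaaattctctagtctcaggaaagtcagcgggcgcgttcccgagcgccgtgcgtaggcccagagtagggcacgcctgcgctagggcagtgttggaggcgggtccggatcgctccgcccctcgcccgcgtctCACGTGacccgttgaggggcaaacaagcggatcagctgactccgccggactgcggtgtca
Man2b1 (chr19:39979197-39979496, - strand): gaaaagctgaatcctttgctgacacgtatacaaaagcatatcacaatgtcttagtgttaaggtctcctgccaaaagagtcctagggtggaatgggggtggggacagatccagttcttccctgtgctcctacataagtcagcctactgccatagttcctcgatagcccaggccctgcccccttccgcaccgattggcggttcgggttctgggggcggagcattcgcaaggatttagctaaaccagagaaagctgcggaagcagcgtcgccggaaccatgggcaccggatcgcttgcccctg
Lamp1 (chr16:83075014-83075313, - strand): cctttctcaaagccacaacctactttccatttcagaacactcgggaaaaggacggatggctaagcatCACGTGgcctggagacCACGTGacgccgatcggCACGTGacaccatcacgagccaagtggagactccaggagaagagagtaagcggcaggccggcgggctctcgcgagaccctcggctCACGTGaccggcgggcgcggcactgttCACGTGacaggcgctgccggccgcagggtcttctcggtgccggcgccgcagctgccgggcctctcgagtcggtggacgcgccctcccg

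CACGTG was found in the windows of 7 of 30 members (23.3%), against 6.42% of all 33469 windows of the same length. Members were counted by gene, and the reference by window. The reference was not limited to genes on the array or to genes tested. The members were Ctsd, Gaa, Glb1, Lamp1, Cd63, Mcoln1 and Atp6v0d1. The longer palindrome TCACGTGA, which contains CACGTG, was in Ctsd, Lamp1, Mcoln1 and Atp6v0d1 (13.3% of members and 0.777% of all windows). Lamp1 held 5 copies of CACGTG and Ctsd and Mcoln1 held 2 each. In Ctsd the copies began at positions -157 and -10, counted from the gene start. CATGTG was in 10 of 30 members (33.3%) and 14.0% of all windows, and the copy in Gpnmb began at -22. A still longer palindrome of 10 letters, which contains the palindrome of 8 letters above, was in 0 of 30 members (0%) and 0.233% of all windows. The window of Man2b1 held none of these motifs. A match describes letters in the window and not a bound site.

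The members that passed the test for iodide, averaged over both lines, were Gpnmb, which rose, and the protease genes Ctsd and Cpq and the mannosidase gene Man2b1, which fell. Thus 4 of 35 members passed, 1 higher and 3 lower, where 1.6% of all tested genes did (0.518% higher and 1.08% lower). Most members had a lower mean signal with iodide: 26 of 35 changes were negative, against 47.8% of all genes, and their median was -0.13, against 0.01 over all genes. Because of how the list was drawn up, these shares describe it and are not an independent test. An unadjusted p under 0.05 was found for 10 of the 35, against 15.2% of all genes. Arrays did not overlap, in the same direction in each line, for 7 members lower (all genes 6.06%) and 2 higher (8.17%). In RNA from a whole culture, fewer cells expressing a gene and less RNA per cell cannot be told apart. With the GAPDH ratio as a covariate 3 members passed, Gpnmb and Cpq among them, and without wild type chloride replicate 1 none did in limma.

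Gpnmb encodes a transmembrane glycoprotein of lysosomes and melanosomes. Its signal was 1013 and 906 on the L629F iodide arrays, against 680.4 and 557 on the L629F chloride arrays. In wild type cells it was 1080.1 and 1312 with iodide, against 480.4 and 611 with chloride. Every iodide array was above every chloride array of both lines. The mean change was 0.85 ± 0.13 (SE, adjusted p = 0.00604), or 1.80-fold, with 95% limits of 0.56 and 1.14. Within a line it was 0.61 ± 0.19 in L629F cells (adjusted p = 0.355) and 1.09 ± 0.19 in wild type cells (adjusted p = 0.0267), and the difference of these was -0.48 ± 0.27 (adjusted p = 0.993). The average call was lost without wild type chloride replicate 1 (adjusted p = 0.059) and with no intensity trend (0.0666). The call in wild type cells was lost without wild type iodide replicate 2 (0.113), wild type chloride replicate 1 (0.334) or wild type chloride replicate 2 (0.128), and with no filter (0.0708) or no trend (0.147).

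**Figure D1:**
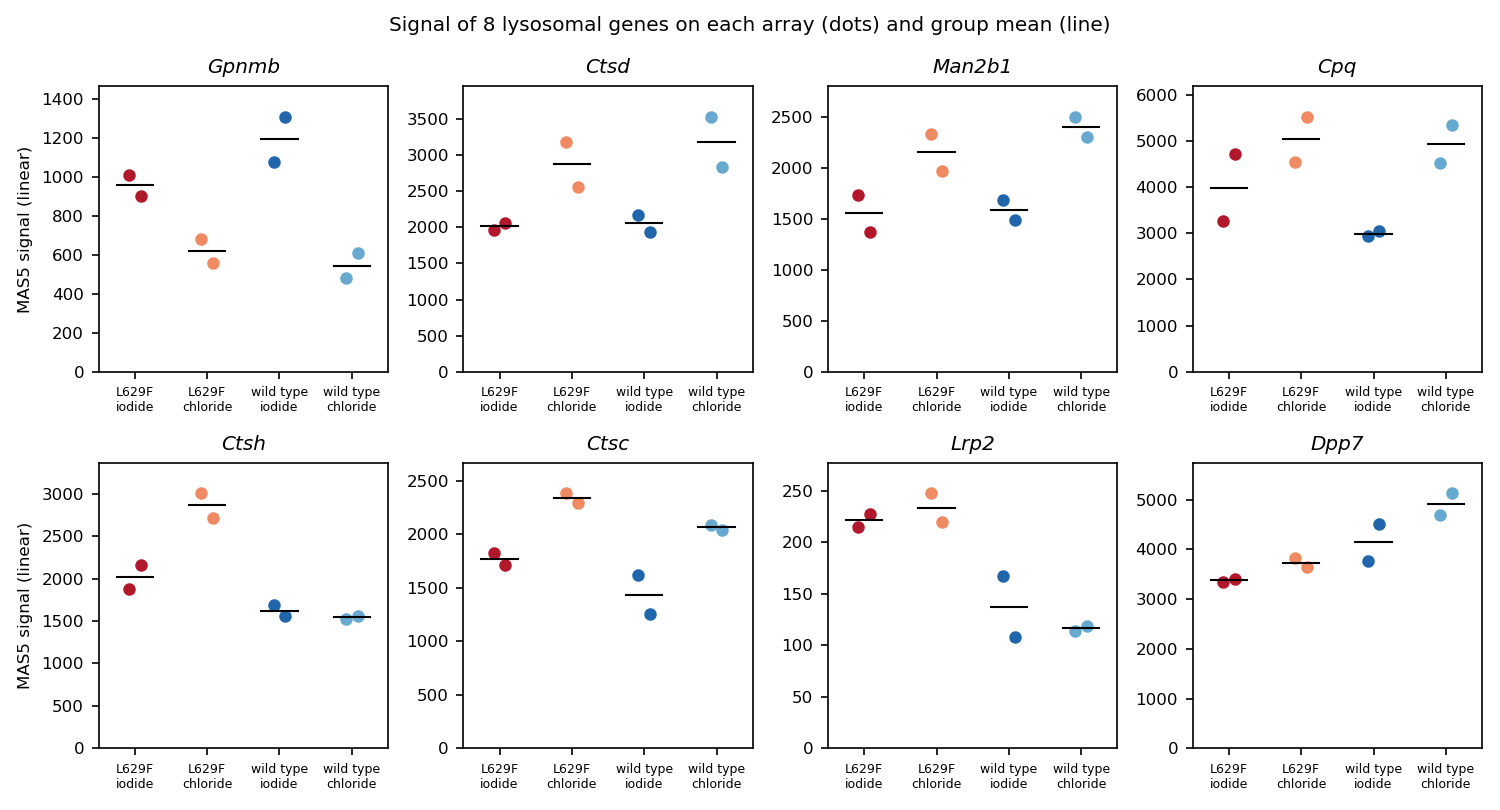
Linear MAS5 signal of 8 members on each array (dots, 2 per group) with the group mean as a line, on axes that start at 0. Gpnmb is higher and Ctsd, Man2b1 and Ctsc are lower on the iodide arrays of each line, and Ctsh is higher on every L629F array than on every wild type array.

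Among the proteases, the aspartic protease gene Ctsd, whose product makes early cuts in thyroglobulin, gave signals of 1966 and 2055 with iodide and 3182 and 2559 with chloride in L629F cells. Wild type cells gave 2168 and 1937 with iodide and 3530 and 2837 with chloride. All iodide arrays were below all chloride arrays. The mean change was -0.56 ± 0.11 (adjusted p = 0.0248), 1.47-fold lower with iodide, and it was -0.50 ± 0.16 in L629F and -0.62 ± 0.16 in wild type cells. This call held without replicate 2 of the L629F chloride group (adjusted p = 0.0432) and without wild type iodide replicate 1 (0.0255) and was lost without any of the 6 other arrays (0.0555 to 0.176), and with the GAPDH ratio as a covariate (-0.43, adjusted p = 0.0663) or no trend (0.16).

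Cpq encodes a lysosomal enzyme that splits dipeptides. Its signals in L629F cells were 3269 and 4708 with iodide and 4545 and 5525 with chloride, which overlapped. The wild type signals were 2932 and 3047 with iodide and 4521 and 5338 with chloride, with a clear gap. The mean change was -0.53 ± 0.12 (adjusted p = 0.0472). Of the fits without 1 array, only that without L629F iodide replicate 2 kept the call (adjusted p = 0.0176), and the other 7 gave 0.0687 to 0.206. It was also lost with arrays centred on either median (0.0637 and 0.0723), the 10th percentile as pseudocount (0.0521), no filter (0.101), probe sets averaged per gene (0.0557), the second brightest probe set of other genes (0.057) and no intensity trend (0.213).

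The remaining proteases included several with arrays that did not overlap and adjusted p-values above the threshold. Of all 11 tested proteases, Ctsd among them, 4 were lower without overlap in each line and 1 was higher. The shares of all genes were 6.06% and 8.17%. Ctsc, a dipeptidyl peptidase that activates serine proteases, had 1824 and 1710.2 with iodide and 2385 and 2296 with chloride in L629F cells, and 1616 and 1257 with iodide and 2092 and 2039 with chloride in wild type cells. Its change was -0.46 ± 0.11 (adjusted p = 0.0513). Lgmn, the asparagine-specific endopeptidase, had a change of -0.41 ± 0.12 (adjusted p = 0.104), and its arrays did not overlap in either line. Ctsl, a cysteine protease that also cuts thyroglobulin, had higher means with iodide, with 8434 and 9261 with iodide and 8030.2 and 7855 with chloride in L629F cells. Wild type cells had 8360 and 9606 with iodide and 6866 and 6502 with chloride. Its change was 0.29 ± 0.09 (adjusted p = 0.117). Ctsb, the cysteine protease with signals of 8460 to 10225, had a change of -0.06 with 95% limits of -0.24 and 0.12. Ctsa, a carboxypeptidase that protects Glb1 and Neu1, had 0.04 (-0.16 to 0.24), and the tripeptidyl peptidase gene Tpp1 -0.09 (-0.28 to 0.09). Dpp7, a dipeptidyl peptidase, had -0.19 ± 0.10, Ctss, a cysteine protease of antigen processing, -0.19 ± 0.17, and Ctsh, an aminopeptidase, -0.21 ± 0.10. Of 11 tested proteases 9 had a negative change, where 47.8% of all genes did. Their median was -0.19, against 0.01 over all genes, and the sign of Ctsa turned with another scaling.

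**Figure D2:**
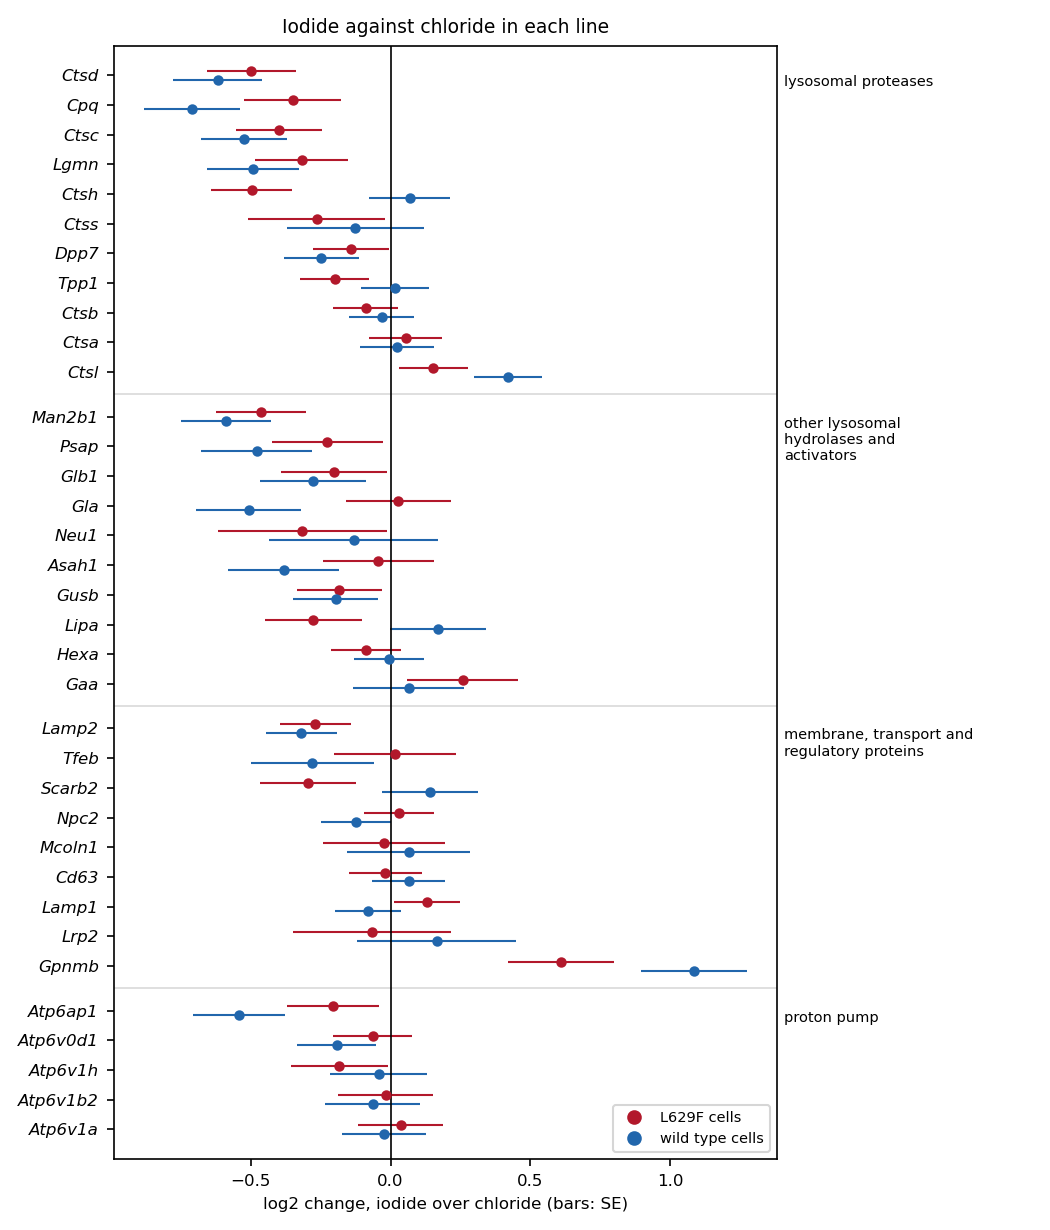
Log2 change with iodide over chloride for the 35 tested members, by role, in L629F cells (red) and wild type cells (blue), with bars of 1 SE. Most protease and hydrolase points lie left of 0 in both lines, the membrane proteins lie on both sides, and Gpnmb stands far right.

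Of the 10 other hydrolases and activators, 9 had a negative change (median -0.22) and 1, Man2b1, passed, where 47.8% of all genes had a negative change and 1.08% passed as lower. Man2b1 is the lysosomal alpha-mannosidase, which trims the sugar chains of glycoproteins. Its brightest probe set gave 1738 and 1377 with iodide and 2339 and 1971 with chloride in L629F cells. Wild type cells had 1690 and 1494 with iodide and 2506 and 2311 with chloride, so all iodide arrays were below all chloride arrays. The change was -0.53 ± 0.11 (adjusted p = 0.0372). Its second, dim probe set (mean signal 78.4) gave 0.07 ± 0.30, opposite in sign. Within a line that probe set gave 0.91 ± 0.42 in L629F cells and -0.76 ± 0.42 in wild type cells. The call held only without wild type iodide replicate 1 (adjusted p = 0.0344) among the fits without 1 array, and the other 7 gave 0.0507 to 0.199. With the GAPDH ratio as a covariate the change was -0.41 (adjusted p = 0.0915), with probe sets averaged per gene it was -0.23 (0.505), and the call was also lost with no filter (0.0641) or no trend (0.167).

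Psap, the precursor of the saposins that help break down sphingolipids, had a change of -0.35 ± 0.14 (adjusted p = 0.239). Glb1, the beta-galactosidase, had -0.24 ± 0.13, the alpha-galactosidase gene Gla -0.24 ± 0.13, the sialidase gene Neu1 -0.22 ± 0.21 and the beta-glucuronidase gene Gusb -0.19 ± 0.11. Asah1, acid ceramidase, had -0.21 ± 0.14. The lipase gene Lipa had -0.05 ± 0.12, and Hexa, a subunit of beta-hexosaminidase, had -0.05 ± 0.09. Gaa, the acid alpha-glucosidase, was the only one of the 10 with a positive change (0.16 ± 0.14). Apart from Man2b1 the adjusted p-values of this role ran from 0.239 to 0.88.

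Among the 9 membrane, transport and regulatory genes, 5 changes were positive and 4 negative (median 0.02). Lamp2, a major protein of the lysosomal membrane, had 5752 and 6400 with iodide and 7882 and 6797 with chloride in L629F cells, and 5279 and 4999 with iodide and 6402 and 6430.4 with chloride in wild type cells. Its arrays did not overlap within a line, and its change was -0.29 ± 0.09 (adjusted p = 0.124). Its partner Lamp1 had 0.02 (95% limits -0.15 and 0.20), and the tetraspanin Cd63 had 0.02 (-0.18 to 0.22). Npc2, a carrier of cholesterol inside the lysosome, had -0.05 ± 0.09. The changes were -0.08 ± 0.12 for Scarb2, a sorting receptor for glucocerebrosidase, and 0.02 ± 0.16 for Mcoln1, a calcium channel. The regulator gene Tfeb had -0.13 ± 0.15 (adjusted p = 0.747). Lrp2, or megalin, had 0.05 ± 0.20 with limits of -0.38 and 0.48. The signs of Lamp1, Cd63 and Atp6v1a turned with another scaling.

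The proton pump genes had 4 negative changes of 5 (median -0.11), where 47.8% of all genes had one, and none passed. In limma 1 of the 5 had an unadjusted p under 0.05, near the 15.2% of all genes. This was Atp6ap1, an accessory subunit, with 1835 and 2160 with iodide and 2394 and 2210.1 with chloride in L629F cells, and 1749 and 2359 with iodide and 3123 and 2838 with chloride in wild type cells. Its change was -0.37 ± 0.12 (adjusted p = 0.132). Atp6v0d1, of the membrane sector, had -0.13 ± 0.10. The subunits of the cytosolic sector had -0.11 ± 0.12 (Atp6v1h), -0.04 ± 0.12 (Atp6v1b2) and 0.01 ± 0.11 (Atp6v1a).

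**Figure D3:**
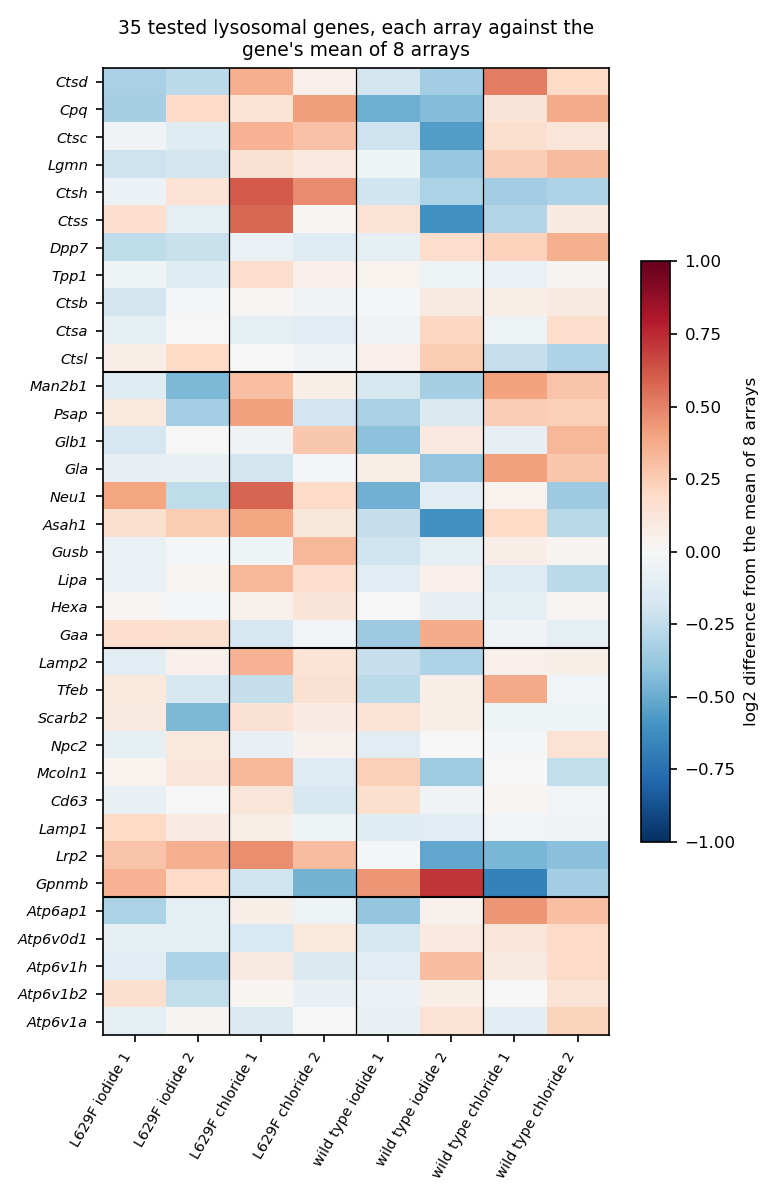
Log2(signal + 35.3) of the 35 tested members on each of the 8 arrays, as the difference from the gene's mean over the arrays (red above, blue below), ordered by role and by the mean iodide change. Ctsd, Ctsc, Lgmn and Man2b1 are blue on the iodide arrays of both lines and red on the chloride arrays, and the wild type iodide and chloride columns show Gpnmb the other way, as do the L629F columns.

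The 2 lines can be set side by side because they share no array. Of 35 members, 19 had a lower mean with iodide in both lines (54.3%) and 4 a higher one (11.4%), against 28.0% and 32.5% of all genes. Proteases (7 of 11), other hydrolases (7 of 10) and pump genes (4 of 5) were mostly lower in both, while 7 of 9 membrane, transport and regulatory genes had opposite signs. In L629F cells no member passed in limma (0.0896% of all genes did), and 5 had an unadjusted p under 0.05, against 8.18% of all genes. These were Ctsh, Gpnmb, Ctsd, Man2b1 and Ctsc. In wild type cells 1 member passed, Gpnmb, where 0.458% of all genes did, and 11 had an unadjusted p under 0.05, against 12.6%. No member passed for a difference between the lines in its iodide change (0% of all genes in limma), and 1 had an unadjusted p under 0.05, against 4.16%. That was Ctsh, with -0.50 ± 0.15 in L629F and 0.07 ± 0.15 in wild type cells, a difference of -0.57 ± 0.21 (limma, adjusted p = 0.993).

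For 10 members a second probe set was kept by the filter. Ctsc gave a change of -0.62 ± 0.16 on its second probe set, of the same sign as on its brightest. Asah1 differed most. Its second probe set had 381 and 534 with iodide and 566 and 710.0 with chloride in L629F cells, and 345 and 367 with iodide and 1033 and 969.5 with chloride in wild type cells. The second probe set thus changed by -0.93 ± 0.15, against -0.21 ± 0.14 for the brightest. In a fit of all 13927 kept probe sets with a single gene name, this passed for the average (adjusted p = 0.00854) and in wild type cells (-1.40 ± 0.21, adjusted p = 0.00997). Gla averaged -0.24 and -0.22 on its brightest and second probe sets, but gave 0.03 in L629F and -0.51 in wild type cells on its brightest, and -0.50 in L629F and 0.06 in wild type cells on its second. Gaa gave -0.17 on its second probe set. Neu1, Ctsl, Lamp2 and Atp6v1b2 had the same sign on both probe sets, and Atp6v1a gave 0.01 and -0.03.

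**Figure D4:**
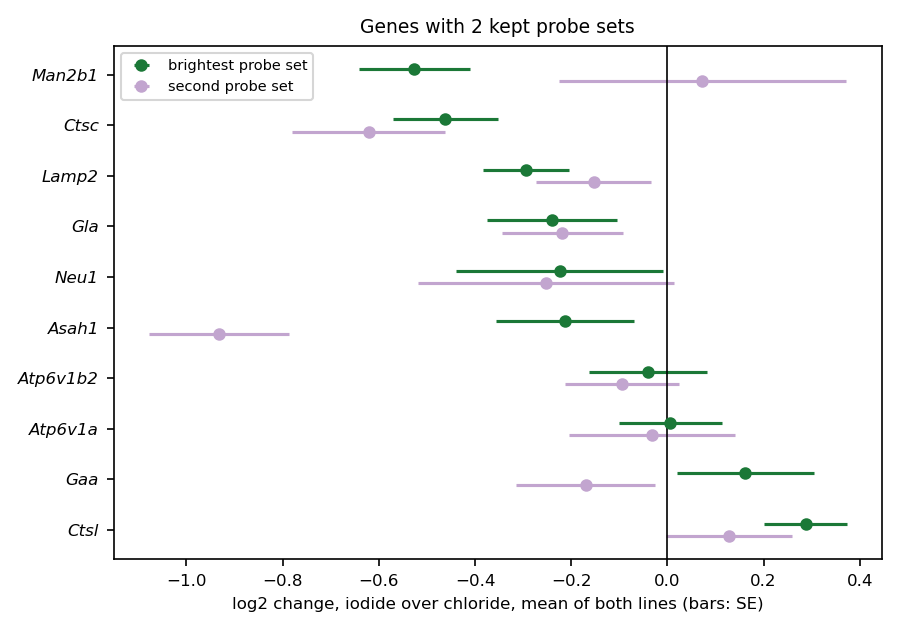
Log2 change with iodide over chloride, averaged over both lines, for the 10 members with a second kept probe set, with bars of 1 SE. The second probe set of Asah1 lies at -0.93 and its brightest at -0.21, and the 2 probe sets of Man2b1 lie on either side of 0.

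For the receptor, Ctsh was the 1 member of 35 that passed for L629F against wild type cells averaged over both salts, where 3.17% of all tested genes did (2.07% higher and 1.09% lower). The median was -0.01, against 0.00 over all genes, with 17 changes positive and 18 negative (50.6% of all genes). An unadjusted p under 0.05 was found for 6 members, against 19.8% of all genes. Arrays did not overlap under either salt, in the same direction, for 4 members higher (all genes 9.37%) and 3 lower (8.42%). The higher ones were Ctsh, Lrp2, Lamp2 and Ctsc, and the lower ones Dpp7, Atp6v1h and Ctsb. Lamp2 and Ctsc were higher on their brightest probe sets, with changes of 0.21 ± 0.09 and 0.24 ± 0.11. Their second probe sets gave 0.04 ± 0.12 for Lamp2 and -0.07 ± 0.16, opposite in sign, for Ctsc. Ctsh, the aminopeptidase, had 1874 and 2162 on the L629F iodide arrays, against 1692 and 1555 on the wild type iodide arrays. Without iodide it had 3006 and 2715 in L629F cells, against 1528 and 1564 in wild type cells. All L629F arrays were above all wild type arrays. The change was 0.59 ± 0.10 (adjusted p = 0.00828), and without wild type chloride replicate 1 the adjusted p was 0.0531.

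Under chloride, Ctsh was also the only member of 35 that passed (0.87 ± 0.15, adjusted p = 0.0258, all genes 0.488%), and 6 had an unadjusted p under 0.05 (13.6%). The call of Ctsh was lost without any of the 4 arrays compared (0.115 to 0.238), with arrays centred on all probe sets (0.0516) and with no trend (0.134). Under iodide its change was 0.31 ± 0.15 (adjusted p = 0.414), no member passed in limma (all genes 0.488%), and 3 had an unadjusted p under 0.05 (Asah1, Cpq and Lamp1), against 12.1% of all genes. These comparisons share arrays with the iodide comparisons, so the high chloride value of Ctsh in L629F cells enters both.

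Lrp2, the thyroglobulin-binding endocytic receptor, had 215 and 227 in L629F and 167 and 108 in wild type cells under iodide. Under chloride it had 248 and 219 in L629F and 114 and 118 in wild type cells. The arrays did not overlap, and the change was 0.71 ± 0.20 (adjusted p = 0.0735). The 25th percentile of signals was also higher on all L629F arrays, and its part in this change was not tested. Over 20 alternative settings, other scalings of the arrays among them, the change of Lrp2 was 0.47 to 0.83. None of these settings subtracted a background from an array, so they did not test the part of the percentile. Dpp7 had 3343 and 3414 in L629F and 3759 and 4520 in wild type cells under iodide, and 3818 and 3643 in L629F and 4682 and 5131 in wild type cells under chloride. Its change was -0.34 ± 0.10 (adjusted p = 0.0731). Asah1 had 1135 and 1210.2 in L629F and 849 and 653 in wild type cells under iodide, and 1336 and 1093 in L629F and 1163 and 828 in wild type cells under chloride, which overlapped. Its change was 0.46 ± 0.14 on its brightest probe set (adjusted p = 0.0953) and -0.16 ± 0.15 on the other. All 5 pump genes had a negative change (-0.24 to -0.07), where 50.6% of all genes had one. None passed in limma, with no unadjusted p under 0.05. Atp6v1h had 1370.4 and 1195 in L629F and 1375 and 1848 in wild type cells under iodide, and 1581 and 1345 in L629F and 1585 and 1703 in wild type cells under chloride. Its change was -0.24 ± 0.12 (adjusted p = 0.304). Centring the arrays on the median of all probe sets moved the median of all genes to -0.17. The median of the members was then -0.18, and 9 members changed sign under a scaling alternative (Ctsl, Tpp1, Gaa, Glb1, Gusb, Hexa, Psap, Lamp1 and Npc2).

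**Figure D5:**
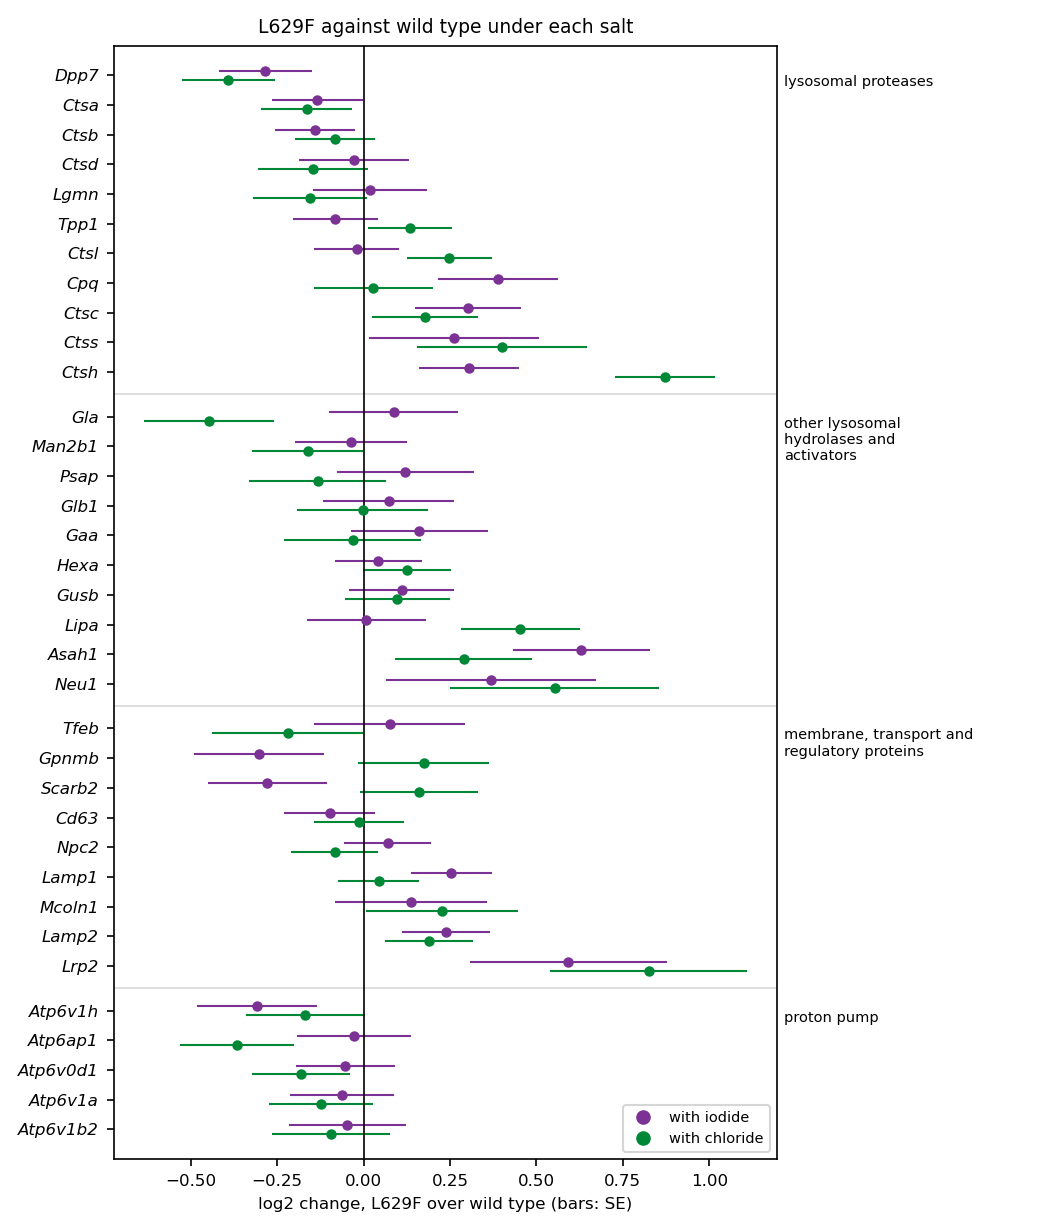
Log2 change of L629F over wild type for the 35 tested members, by role, with iodide (purple) and with chloride (green), with bars of 1 SE. Ctsh and Lrp2 lie to the right of 0 under both salts, Dpp7 and the pump genes to the left.

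Further genes of the pathway were measured for comparison. Of 20 tested further lysosomal hydrolases none passed for iodide (9 negative changes, median 0.02, 3 with an unadjusted p under 0.05 in limma, near the 15.2% of all genes). For the receptor, 3 of the 20 passed, 2 higher and 1 lower, where 2.07% and 1.09% of all genes did. Arsb, a sulfatase that acts on dermatan sulfate, had 570 and 573 in L629F and 823 and 950 in wild type cells under iodide, and 587 and 569 in L629F and 809.7 and 877 in wild type cells under chloride. It changed by -0.56 ± 0.12 (adjusted p = 0.025). Ids, another sulfatase of glycosaminoglycans, had 0.53 ± 0.11 (adjusted p = 0.0266), and Arsa, which removes sulfate from sulfatide, 0.50 ± 0.12 (adjusted p = 0.0457). None of the arrays of these 3 genes overlapped between the lines.

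Of 7 listed protease inhibitors 6 were on the array and 3 were tested. Of these 3, 1 passed for iodide, as lower, where 1.08% of all genes did. Serpinb1a, an inhibitor of serine proteases, had 544 and 516 with iodide and 1014 and 906 with chloride in L629F cells. Wild type cells had 457 and 340 with iodide and 607 and 626 with chloride. Its change was -0.71 ± 0.13 (adjusted p = 0.0175). No gene passed for iodide or for the receptor among 10 further membrane proteins (median 0.04 for iodide and 0.07 for the receptor), 12 further pump subunits (0.03 and -0.12), 14 genes of mannose 6-phosphate and sortilin sorting (-0.04 and 0.00), 10 regulators around Tfeb (0.02 and -0.03) and 12 autophagy genes (0.02 and -0.07). In limma the numbers with an unadjusted p under 0.05 were 4 and 3, 3 and 5, 3 and 2, 1 and 1, and 1 and 3, where the shares of all genes were 15.2% for iodide and 19.8% for the receptor. Igf2r, a mannose 6-phosphate receptor that carries enzymes to the lysosome, had -0.56 ± 0.15 for iodide (adjusted p = 0.0802). Mitf, the relative of Tfeb, had -0.56 ± 0.16 for the receptor (adjusted p = 0.0801).

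Of 8 tested genes of thyroglobulin supply, uptake and hormone release none passed (median -0.05 for iodide and -0.02 for the receptor, with 1 and 4 at an unadjusted p under 0.05 in limma, against 15.2% and 19.8% of all genes). Tg, the substrate of these proteases, had 13609 and 13929 with iodide and 15811 and 16582 with chloride in L629F cells on its brightest probe set. In wild type cells it had 10748 and 13846 with iodide and 12335 and 13477 with chloride, which overlapped. Its iodide change was -0.16 ± 0.09 (adjusted p = 0.458). Its second probe set gave 0.58 ± 0.13, opposite in sign (adjusted p = 0.0502 in the limma fit of all 13927 kept probe sets). That probe set had 7763 and 11052 with iodide and 6662.5 and 7724 with chloride in L629F cells. In wild type cells it had 9481 and 12508 with iodide and 5751 and 6852 with chloride, and the arrays did not overlap in either line.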

How the data were processed

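RNA of 8 samples was measured on Affymetrix arrays for the rat, with biotin-labelled cRNA per the labels' protocols. The deposited values were intensities per probe set on a linear scale. MAS5 is the only tool that the submitters' processing notes name, and for its version and scaling target nothing is stated in the sources used here. Without its lowest and highest 2%, each array averaged 500.2. Of 20832 probe sets that the platform annotation gives a single symbol, 20764 were brought up to date through the GRCr8 gene table. Control probe sets (57) and the dimmest 40% were then left out, and each gene was fitted on its brightest probe set with a pseudocount of 35.3, the 25th percentile of all signals. limma 3.58.1 (R 4.3.3) fitted 4 group means to the uncentred arrays, with 4 residual and 9.43 prior degrees of freedom, an intensity trend and 7 two-sided comparisons, and was tested on simulated data. Precision is limited by the number of arrays, with a median SE over members of 0.12 for the averaged iodide comparison and 0.16 within wild type cells. Arrays of a group correlated at 0.971 to 0.981. Plots used matplotlib 3.10.9 (Python 3.11.15).

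The members and all gene lists were chosen with earlier results of these data known. Values per array are given for members that passed in any comparison, for the member of smallest p of each role in the averaged comparisons, and for some others chosen after their values were seen. Genes of the further lists are named where they passed, with Igf2r and Mitf added afterwards. The alternatives changed the pseudocount, filter, scaling, choice of probe set, trend, arrays fitted, replicate term, a GAPDH covariate and the threshold. Fits without 1 array were made for all 8.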

Additional observations from a re-analysis of the deposited data

How the results depend on the processing

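For iodide averaged over both lines, the number of members past the threshold was 4, and it was 2 with no filter on dim probe sets, 0 without the intensity trend and 0 to 4 without 1 array. In wild type cells the number was 1, and it was 0 with no filter or no trend, 2 with probe sets averaged per gene, the second probe set or the GAPDH covariate, and 0 to 1 without 1 array. For the receptor average it was 1. It was 5 with arrays centred on all probe sets (1 higher and 4 lower) and 5 with the GAPDH covariate (4 higher and 1 lower). It was 2 without the trend and 4 at a threshold of 0.10, and it changed in some fits without 1 array. Under chloride 1 member passed for the receptor, and 0 did with arrays centred on all probe sets, without the trend and, at the lower end, without 1 array. Under iodide it was 0, and 1 with the GAPDH covariate. For iodide on average, the log2 change of Man2b1 was 0.073 with the second brightest probe set. With the replicate number as a block, the numbers were 8 for iodide on average, 4 for iodide in wild type cells and 4 for the receptor average. The deviations of same-numbered arrays correlated at 0.04 to 0.23 between groups and were over 0.1 in 4 of 6 pairs of groups, and the 3′ over 5′ signals of GAPDH and actin were higher in replicate 2 of all 4 groups. The labels do not say what a number marks, and not every pair was over 0.1, so whether the numbers pair the samples was not settled and the fit without the block was kept. Of 35 members, 23 kept their sign under all alternatives for iodide on average and 15 for the receptor average. Over all genes, the averaged iodide comparison had 52 higher and 109 lower calls, and 99 and 96 with arrays centred on all probe sets, 71 and 97 centred on the kept ones, 35 and 123 after quantile normalization, 18 and 74 with no filter, 4 and 14 without the trend and 250 and 271 with the replicate block. The receptor average had 208 and 110, and 146 and 1230 centred on all probe sets, 138 and 33 without the trend, 427 and 377 with the block and 397 and 319 with the GAPDH covariate. Centred on all probe sets, the receptor calls were 17 and 72 under chloride, against 34 and 15, and 16 and 41 under iodide, against 36 and 13. Fits of only the arrays compared were not run for the averages and the interaction, which use all arrays. MAS5 signals carry no detection call here, so no bound was set for dim members.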
